A study of Mus musculus with 4 samples.

Results

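The 10 genes described here, Cxcl12, Kitl, Vcam1, Angpt1, Csf1, Il7, Igf1, Il34, Bmp4 and Tgfb1, encode factors with which bone marrow stroma is known to hold and feed blood stem and progenitor cells. They were taken by symbol from the 31053 genes of the count matrices. Their levels were followed in 2 droplet single-cell RNA libraries of sorted mouse bone marrow stromal cells, 1 from a control and 1 from a STAT5 knockout (STAT5 KO) genotype, and then in 2 libraries of sorted blood progenitors. Within each stromal library the cells were split at a Cxcl12 share of 1% of a cell's unique molecular identifiers (UMIs, the counted transcript tags). A barcode found in both stromal libraries was dropped from the one where it had fewer UMIs.

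The control genotype was Vav1-Cre/+STAT5ab+/+ and the knockout genotype Vav1-Cre/+STAT5abfl/fl, so both carried the Vav1-Cre transgene. Vav1 drives Cre in blood cells. The stromal cells, called MSC in the labels, came from bones of mice aged 6 to 8 weeks and were sorted for Sca-1 and CD140a on cells without CD45 or CD71 and with little or no Ter119. The progenitors, called KLS cells, carried c-Kit and Sca-1 without lineage markers and came from 4 mice aged 8 to 12 weeks. Each combination of sort and genotype was 1 library, so no test between genotypes was possible. Every interval given is a 95% interval that covers counting error only.

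After filtering, the libraries held 580 MSC control cells, 378 MSC STAT5 KO cells, 3086 KLS control cells and 6722 KLS STAT5 KO cells, with 1761645, 1210919, 51454081 and 76416003 UMIs in the same order. Stat5a and Stat5b together stood at 129 UMIs per 1000000 (CPM) in KLS control cells and 11.3 CPM in KLS STAT5 KO cells. In the stromal cells they stood at 92.0 CPM (78.3 to 107) in the control and 102 CPM (84.4 to 121) in the knockout library. Unlike in the KLS cells, no fall of Stat5 UMIs was seen in the stromal knockout library. For stromal cells, knockout thus names the genotype label and not a measured loss of Stat5 transcripts. The genotype labels of the stromal libraries therefore could not be checked from their own Stat5 UMIs, and each stromal comparison of knockout with control rests on those labels. Of the stromal barcodes, 42 were present in both stromal libraries, and 229 of the control and 200 of the knockout barcodes also occurred in a KLS library.

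In the marrow, CXCL12-abundant reticular cells are perivascular stromal cells that carry the leptin receptor and contact most stem cells. CXCL12 acts on CXCR4 to retain stem and progenitor cells, and the membrane-bound and shed forms of the KIT ligand keep them alive. Other cells of the same sort include fibroblasts and bone-forming and cartilage-forming cells, which build matrix and secrete growth factors of their own.

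Coordinates of the members are those of GENCODE M21 on GRCm38, and each locus is a protein-coding gene. The retention chemokine gene Cxcl12 lies at chr6:117168535-117181367 and Kitl, the ligand of the KIT receptor, at chr10:100015630-100100416, both on the plus strand. Vcam1, an adhesion molecule for integrin alpha 4, lies at chr3:116109949-116129688 on the minus strand, and Angpt1, the ligand of the TIE2 receptor, at chr15:42424723-42676977 on the minus strand. The ligands of the CSF1 receptor are Csf1 at chr3:107741048-107760469 and Il34 at chr8:110741829-110805924, both on the minus strand. Il7, a cytokine needed by B and T cell precursors, lies at chr3:7569994-7613760 on the minus strand. Igf1, a growth factor, lies at chr10:87858265-87937042 on the plus strand, Bmp4, a bone morphogenetic protein, at chr14:46383520-46390669 on the minus strand, and Tgfb1, which signals through TGF-beta receptors, at chr7:25687002-25705077 on the plus strand. Antisense genes overlap Vcam1, Angpt1, Il7, Igf1, Il34 and Bmp4, and reads of a gene and its antisense partner could not be told apart, because the strand rule of the counting is not given in the sources used here.

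Promoter sequences of 6 members were matched by symbol in RefSeq (GRCm38.p6), and Vcam1, Angpt1, Il7 and Il34 were not among the entries. The 250 bases before the start are printed for 3 members whose RefSeq start equals the GENCODE gene start and which differ in how much of their UMIs the cells with high Cxcl12 held. These cells, which were chosen by Cxcl12, held 97.1% of the Cxcl12 UMIs, and also 58.3% of the Csf1 UMIs and 28.0% of the Tgfb1 UMIs of the stromal control library. Capitals mark CCCNNGGG, the core letters bound by early B cell factors, on either strand.
Cxcl12, chr6:117168285-117168534, plus strand: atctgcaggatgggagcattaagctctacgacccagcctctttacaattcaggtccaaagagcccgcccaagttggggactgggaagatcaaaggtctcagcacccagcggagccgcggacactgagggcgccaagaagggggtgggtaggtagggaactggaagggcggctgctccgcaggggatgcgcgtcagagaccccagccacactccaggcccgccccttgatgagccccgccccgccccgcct
Csf1, chr3:107760470-107760719, minus strand: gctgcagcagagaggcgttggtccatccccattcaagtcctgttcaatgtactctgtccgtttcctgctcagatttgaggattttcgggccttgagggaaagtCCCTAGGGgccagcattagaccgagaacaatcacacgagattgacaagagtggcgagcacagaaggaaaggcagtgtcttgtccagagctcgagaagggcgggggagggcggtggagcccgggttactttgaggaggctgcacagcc
Tgfb1, chr7:25686752-25687001, plus strand: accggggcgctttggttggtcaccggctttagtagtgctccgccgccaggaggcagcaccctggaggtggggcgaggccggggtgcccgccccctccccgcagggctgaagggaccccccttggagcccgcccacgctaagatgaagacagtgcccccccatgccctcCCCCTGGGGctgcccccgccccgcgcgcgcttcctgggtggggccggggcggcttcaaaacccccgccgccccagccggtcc

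Over the RefSeq windows of 250 bases before to 50 bases after the start, CCCNNGGG was found for 4 of the 6 members (Csf1, Tgfb1, Igf1 and Bmp4), against 13.7% of all 32851 windows. In Tgfb1 it was present as 2 overlapping matches. The letters TTCNNNGAA, the core of STAT5 sites, were found for 0 of the 6, against 8.3% of all windows. TATAAA, searched on both strands, was found for 1 of the 6, Kitl, where it began 25 bases before the start, against 13.6% of all windows. The Igf1 match began 20 bases after the RefSeq start, which differs from the GENCODE gene start. The Cxcl12 window was 64.7% and the Kitl window 68.7% G or C, against a median of 52.7%. Of the windows with CCCNNGGG, Tgfb1 was at 77.0%, Bmp4 at 64.0%, Csf1 at 58.7% and Igf1 at 52.3%. The part of base composition in the matches was not tested. These matches describe letters in these windows and nothing about binding.

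The share of Cxcl12 among a cell's UMIs fell into separate ranges. In the control library 102 of 580 cells (17.6%, exact binomial interval 14.6 to 20.9) reached 1%, and in the knockout library 52 of 378 (13.8%, 10.4 to 17.6). These Cxcl12-high cells span a range of 1 score and are not a type by construction. Few cells lay near the limit: 2 control and 3 knockout cells held between 0.5% and 1%, and 19 and 15 cells held between 1% and 2%. The highest share outside was 0.529% in the control and 0.661% in the knockout library, and the lowest inside was 1.18% and 1.13%. Among the Cxcl12-high cells the median share was 2.79% in the control and 2.44% in the knockout library, with highest cells at 6.25% and 4.01%. The limit used Cxcl12 itself, so these values describe the cells it chose.

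**Figure D1:**
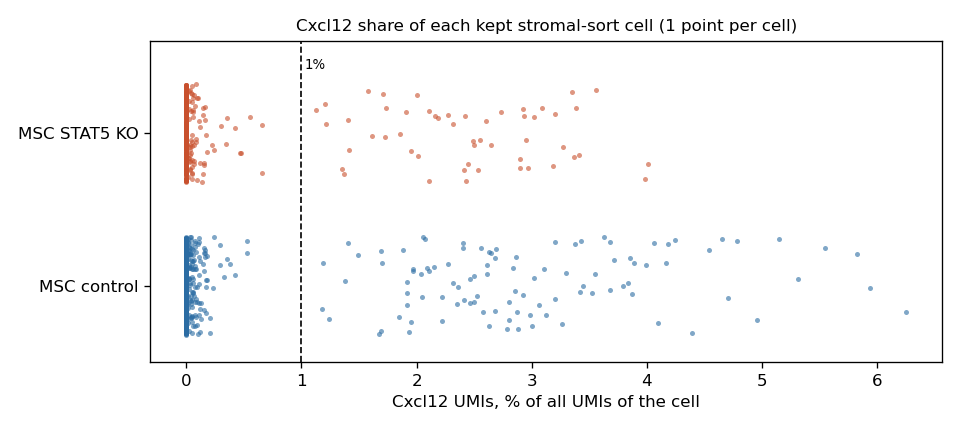
Cxcl12 UMIs as a percent of all UMIs of a cell (horizontal axis), 1 point per kept stromal cell, for the control (lower) and the STAT5 KO library (upper), with vertical jitter for display. The dashed line is the 1% limit, and few points lie between 0.5% and 1% in either library.

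Markers of CXCL12-abundant reticular cells went with the limit. Each of 11 markers on the list, among them Lepr, Adipoq, Ebf3 and Foxc1, was at least 1.5-fold higher in the Cxcl12-high cells than in the other cells of both libraries. The summed level of the list was 20609 CPM in control and 21864 CPM in knockout Cxcl12-high cells, against 1159 and 920 CPM in the other cells. As a median over cells, the fibroblast list stood at 520 CPM in control and 481 CPM in knockout Cxcl12-high cells, the osteolineage list at 4750 and 2980 CPM, the pericyte and smooth muscle list at 510 and 539 CPM, and the erythroid, chondrocyte, endothelial and blood leukocyte lists at 0 in both. A median of 0 is not absence. A UMI of the erythroid list was seen in 46.1% of control and 44.2% of knockout Cxcl12-high cells, with summed levels of 239 and 193 CPM. For the chondrocyte list the shares were 43.1% and 48.1%, at 224 and 268 CPM. They were 16.7% and 26.9% for the endothelial list and 5.88% and 5.77% for the blood leukocyte list. Ptprc, which encodes CD45, had 0 UMIs in the Cxcl12-high cells of either library.

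The members divided into those concentrated in Cxcl12-high cells and those spread over the stroma. Leaving Cxcl12 aside, 7 of 9 members in the control library were at least 1.5-fold higher in Cxcl12-high cells, where 22.9% of 8705 genes with at least 20 UMIs were higher and 19.6% lower. In the knockout library 6 of 8 members with enough UMIs were higher, against 25.7% higher and 24.9% lower of 7229 genes. The 6 were Kitl, Vcam1, Angpt1, Csf1, Il34 and Bmp4 in both libraries, and Il7 was the seventh in the control. Il7, with 2 UMIs in the other control cells, passed the minimum of 20 UMIs only through the Cxcl12-high cells. In the knockout library this also holds for Kitl and Il34, with 19 and 11 UMIs in the other cells. These 3 calls are descriptions and support nothing by themselves. Igf1 and Tgfb1 were past 1.5-fold in neither direction in either library. No member was lower by that fold in Cxcl12-high cells.

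Kitl was at 1698 CPM in control Cxcl12-high cells and at 27.9 CPM in the other control cells, a 60.8-fold difference (43.8 to 86.6). In the knockout library it was at 1847 and 18.6 CPM, a 99.6-fold difference (62.8 to 167). Cxcl12-high cells thus held 94.7% of the Kitl UMIs of the control and 94.8% of those of the knockout library. Vcam1 was distributed in the same manner, at 1596 against 37.5 CPM in the control and 1810 against 33.2 CPM in the knockout library, with 92.6% and 90.9% of its UMIs in Cxcl12-high cells. Il7 had few UMIs: 31 in control Cxcl12-high cells and 2 in the other control cells, a ratio of 52.5 (13.4 to 453), and 14 and 1 in the knockout library.

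Il34 and Angpt1 were intermediate. Il34 was 12.5-fold higher in the Cxcl12-high cells of the control (8.46 to 19.0) and 17.9-fold higher in those of the knockout library (8.94 to 39.1). Angpt1 was 7.32-fold (4.71 to 11.6) and 7.92-fold (4.73 to 13.4) higher. The macrophage growth factor gene Csf1 was 4.73-fold (3.87 to 5.79) and 6.51-fold (4.88 to 8.70) higher, so that Cxcl12-high cells held 58.3% and 54.3% of its UMIs. Bmp4 was 4.09-fold (3.14 to 5.34) and 4.40-fold (2.96 to 6.52) higher, with 54.7% and 44.5% of its UMIs there. Since the Cxcl12-high cells held 22.8% of all control UMIs and 15.4% of all knockout UMIs, an even spread would put 22.8% and 15.4% of a gene's UMIs there. Igf1 lay near that line, with 19.9% and 19.0% of its UMIs in Cxcl12-high cells, as did Tgfb1, with 28.0% and 12.5%.

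**Figure D2:**
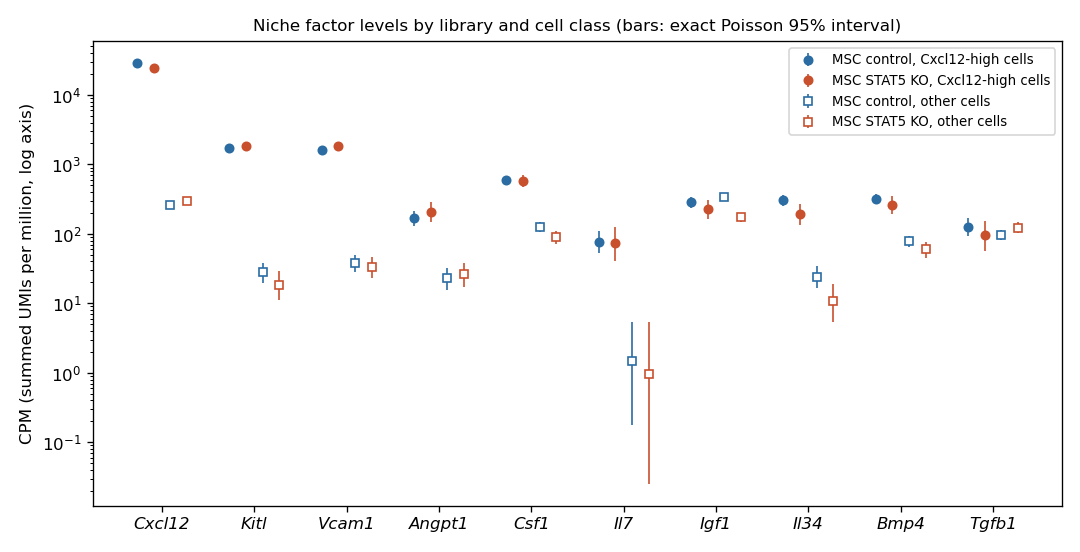
Summed level of each niche factor in CPM (vertical log axis) in Cxcl12-high cells (filled circles) and other cells (open squares) of the control and the STAT5 KO stromal library, with exact Poisson 95% intervals. Filled points lie far above open points for Cxcl12, Kitl, Vcam1 and Il7, and overlap or nearly overlap them for Igf1 and Tgfb1.

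Single Cxcl12-high cells carried several of these factors at once. With each cell thinned to 1000 UMIs (98 control and 50 knockout cells, with 4 and 2 shallower cells left out), Kitl was seen in 75.5% of control and 76.0% of knockout Cxcl12-high cells, and Vcam1 in 73.5% and 80.0%. Before thinning Kitl was seen in 97.1% and 96.2% and Vcam1 in 93.1% and 92.3% of them. Both genes had a UMI in most Cxcl12-high cells of either library. Csf1 was seen in 42.9% and 46.0% after thinning, Igf1 in 20.4% and 20.0%, Bmp4 in 15.3% and 14.0%, and Angpt1 in 15.3% and 14.0%. The Igf1 shares depended on the depth chosen: at 500 UMIs they were 20.6% and 9.62% (21 of 102 and 5 of 52 cells), also with overlapping intervals. Of the 9 members other than Cxcl12, the median Cxcl12-high cell showed 3 in either library, and 88.8% of control and 86.0% of knockout cells showed at least 2. Among the other cells 9.14% of 339 control and 6.11% of 229 knockout cells showed at least 2.

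Free RNA was gauged in the erythroid-like cells of the stromal sort, which are not known as a source of Cxcl12, Kitl or Vcam1 and whose median depth was 648 UMIs in the control and 650 in the knockout library, against 3942 and 3501 in Cxcl12-high cells. Thinned to 500 UMIs, 2 of 65 control and 0 of 50 knockout erythroid-like cells showed Cxcl12, where 0 of 50 has an exact upper limit of 7.11% (6.00% by a floor of 3 counts). Kitl and Vcam1 were seen in 0 of 65 and 0 of 50, while 58.8% and 57.7% of Cxcl12-high cells thinned to the same depth showed Kitl and 52 of 102 and 26 of 52 showed Vcam1. Tgfb1 was seen in 3.08% of control erythroid-like cells against 5.88% of control Cxcl12-high cells, but blood cells also transcribe Tgfb1, as the KLS values below show, so these cells give no background for it.

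Between genotypes, Kitl and Vcam1 differed little within Cxcl12-high cells, while Il34 was lower in the knockout library. Of the 10 members, 1 was at least 1.5-fold lower in the knockout library among Cxcl12-high cells and 0 were higher, where 13.1% of 4838 genes were lower and 9.45% higher. The share of the members lies near this background and is no result about them. The fold was read on log2(CPM + 10), where 1.5-fold is 0.585, and the other log2 ratios given here carry no pseudocount. The median of the 10 members was -0.13 against -0.03 over the 4838 genes.

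For Kitl, the control Cxcl12-high cells held 1698 CPM (1573 to 1830) and the knockout ones 1847 CPM (1657 to 2053), a log2 ratio of 0.12 (-0.07 to 0.31). Vcam1 stood at 1596 CPM (1475 to 1724) and 1810 CPM (1622 to 2013), a log2 ratio of 0.18 (-0.01 to 0.37). The intervals of these 2 ratios hold 0 and do not reach a fall of 1.5-fold. They cover counting error only, and the spread between cells, mice or libraries was not tested. Cxcl12 stood at 28927 and 24723 CPM, a log2 ratio of -0.23 (-0.28 to -0.18), which is given as a description since Cxcl12 chose the cells. Angpt1 was at 167 and 209 CPM with a log2 ratio of 0.32 (-0.28 to 0.91), from 67 and 39 UMIs. Csf1 was at 595 and 578 CPM (-0.04, -0.38 to 0.29) and Il7 had 31 and 14 UMIs (-0.04, -1.07 to 0.91). For Angpt1 and Il7 the intervals are wide enough to hold differences past 1.5-fold.

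Il34 was the member past the fold in Cxcl12-high cells. It had 122 UMIs in the control and 36 in the knockout library, or 304 CPM (252 to 363) and 193 CPM (135 to 267). The log2 ratio was -0.66 (-1.24 to -0.11), and -0.63 with the pseudocount, so the call lay close to its limit. Before thinning, 53.9% of 102 control and 38.5% of 52 knockout Cxcl12-high cells had an Il34 UMI, and at 1000 UMIs a cell the shares were 31.6% (22.6 to 41.8) and 14.0% (5.82 to 26.7). At 500 UMIs, with 0 cells left out, they were 15.7% and 9.62% (16 of 102 and 5 of 52 cells), with overlapping intervals. With the Cxcl12 limit at 2% instead of 1%, the value with the pseudocount was -0.56 and no longer past the fold. Csf1, whose product shares a receptor with IL-34, stood at -0.04 in the same cells, and the difference between the 2 genes was not tested.

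The growth and differentiation factors had lower values in the knockout library but were not past the fold. Igf1 stood at 286 and 225 CPM in Cxcl12-high cells (log2 ratio -0.35, -0.89 to 0.17), Bmp4 at 319 and 262 CPM (-0.28, -0.79 to 0.20) and Tgfb1 at 127 and 96.4 CPM (-0.40, -1.26 to 0.40). Each of these intervals holds 0. With the Cxcl12 limit at 0.5% instead of 1%, Igf1 was at -0.73 with the pseudocount, past the fold, where it had been at -0.34. The osteolineage marker list summed to 5201 CPM in control and 3228 CPM in knockout Cxcl12-high cells, with 2 of its 4 genes with enough UMIs (Ibsp and Alpl) past 1.5-fold lower and Dmp1 at 0 UMIs in both, and the part of this in the members' values was not tested.

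In the other stromal cells the picture turned on Igf1. Of 9 members with enough UMIs, 2 (Igf1 and Il34) were at least 1.5-fold lower in the knockout library and 0 were higher, where 7.12% of 9378 genes were lower and 5.84% higher. Igf1 stood at 341 CPM (311 to 374) in the control and 175 CPM (150 to 202) in the knockout library, from 464 and 179 UMIs, a log2 ratio of -0.96 (-1.22 to -0.71). At 1000 UMIs a cell, 23.9% of 339 control and 15.3% of 229 knockout cells showed it, and without thinning 30.1% and 20.9%. Il34 stood at 24.3 and 10.7 CPM, from 33 and 11 UMIs, a log2 ratio of -1.18 (-2.31 to -0.16). Of these UMIs, 11 and 4 lay in a pericyte and smooth muscle-like cluster of 18 control and 3 knockout cells. The part of that difference in cells was not tested. The median of the 9 members was -0.34 against -0.04 over the 9378 genes, 0.10 with every barcode found in both stromal libraries dropped from both, and 0.02 without the chondrocyte-like cells.

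The makeup of the other cells differed between the libraries beside these values. The chondrocyte-like cluster held 67076 of the 1359979 UMIs of the other control cells and 294068 of 1024129 in the knockout library. These UMIs are in the denominator of each CPM of the other cells, and their part in the ratios was not tested gene by gene. The summed chondrocyte list stood at 4726 CPM in the control and 24097 CPM in the knockout library, with 10 of 10 genes past 1.5-fold higher. The fibroblast list stood at 43448 and 30144 CPM with 8 of 10 lower, the erythroid list at 40638 and 17360 CPM with 4 of 9 lower, and the blood leukocyte list at 1507 and 614 CPM with 5 of 8 lower. The pericyte and smooth muscle list stood at 749 and 475 CPM with 4 of 6 lower and 1 higher. The osteolineage list summed to 10425 and 9072 CPM, though 6 of its 8 genes were past 1.5-fold higher. With the chondrocyte-like cells left out, which was tried after the data had been seen, Igf1 was at -0.53 and Il34 at -0.50 on the scale with the pseudocount, where they had been at -0.93 and -0.72. Neither was then past 1.5-fold. With every barcode found in both stromal libraries dropped from both, the values were -0.52 and -0.58, again short of the fold.

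The remaining members in the other cells were short of the fold, though 2 of them passed it under an alternative. Cxcl12 stood at 258 and 300 CPM there (log2 ratio 0.22, -0.01 to 0.44), Kitl at 27.9 and 18.6 CPM (-0.59, -1.47 to 0.24), Vcam1 at 37.5 and 33.2 CPM (-0.18, -0.85 to 0.48) and Angpt1 at 22.8 and 26.4 CPM (0.21, -0.59 to 1.00). Csf1 stood at 126 and 88.9 CPM (-0.50, -0.88 to -0.13), Bmp4 at 77.9 and 59.6 CPM (-0.39, -0.87 to 0.08) and Tgfb1 at 96.3 and 123 CPM (0.35, -0.01 to 0.72). Csf1 was the one of these whose interval left 0, and it was short of the fold. With the pseudocount Csf1 was at -0.46 and ranged from -0.56 to -0.10 over the alternatives. Il7 had 2 and 1 UMIs. With the pseudocount, Kitl was at -0.41, and at -1.09 with the Cxcl12 limit at 0.5%. Cxcl12 was at 0.21, and at 0.60 without the chondrocyte-like cells, 0.59 with every shared stromal barcode dropped and -0.34 with the limit at 2%.

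Summed over all stromal cells, Cxcl12, Kitl and Vcam1 were lower in the knockout library than the ratios within Cxcl12-high cells show. Cxcl12 stood at 6795 CPM in the control and 4067 CPM in the knockout library (log2 ratio -0.74, -0.79 to -0.69), Kitl at 409 and 301 CPM (-0.44, -0.63 to -0.26) and Vcam1 at 393 and 307 CPM (-0.35, -0.54 to -0.17). Over all cells 3 of 10 members (Cxcl12, Igf1 and Il34) were past 1.5-fold lower and 0 higher, where 5.03% of 10169 genes were lower and 4.07% higher. In such a sum, fewer cells of a class and less RNA per cell cannot be told apart. When knockout cells were weighted so that Cxcl12-high cells gave the control share, the values with the pseudocount were -0.42 for Cxcl12, -0.11 for Kitl and -0.04 for Vcam1, where they had been -0.74, -0.43 and -0.34. Over all alternatives they ranged from -0.76 to -0.40, from -0.45 to -0.09 and from -0.37 to -0.01. The chondrocyte-like cluster held 67076 of 1761645 control and 294068 of 1210919 knockout UMIs, which are in the denominator of these CPM. Its part was not separated from that of the Cxcl12-high share. Il34 stood at 88.0 and 38.8 CPM over all cells (-1.18, -1.68 to -0.70) and Igf1 at 329 and 183 CPM (-0.85, -1.08 to -0.62). Angpt1 was level at 55.6 and 54.5 CPM, and Tgfb1 was the member with a higher value in the knockout library, at 103 and 119 CPM (0.20, -0.12 to 0.53).

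**Figure D3:**
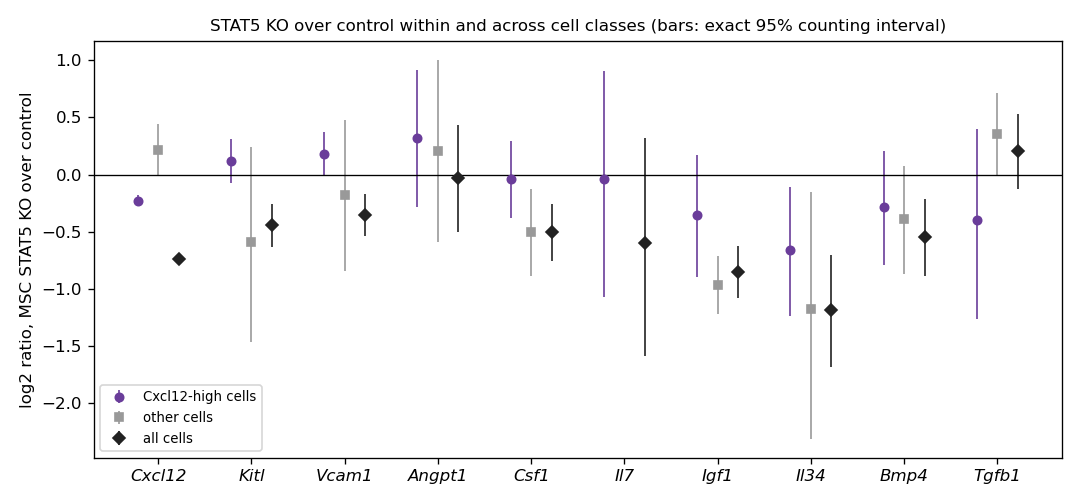
Log2 ratio of STAT5 KO over control for each niche factor in Cxcl12-high cells (circles), other cells (squares) and all stromal cells (diamonds), with exact 95% counting intervals; members with under 20 UMIs are left out. For Kitl and Vcam1 the circles lie above 0 and the diamonds below it, and for Il34 all 3 symbols lie below 0.

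Clusters computed without the members placed them further. The 10 clusters with at least 20000 UMIs in each library were compared. Cxcl12, Kitl, Vcam1, Angpt1, Csf1, Il7, Il34 and Bmp4 were highest, by the mean of the 2 libraries, in the CXCL12-abundant reticular-like cluster, which held 102 control and 54 knockout cells and, of the Cxcl12-high cells, 95 and 50. The osteolineage-like cluster (43 and 17 cells) came second for Cxcl12, at 4883 and 3214 CPM, for Kitl, at 243 and 313 CPM, and for Vcam1, at 266 and 172 CPM. For each of these 3 genes both libraries of the reticular-like cluster lay above both libraries of every other cluster compared. Within the osteolineage-like cluster 34.5% of the control and 72.2% of the knockout Cxcl12 UMIs came from 1 cell each.

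Igf1 was highest in the fibroblast-like cluster (68 and 33 cells), at 550 CPM in the control and 600 CPM in the knockout library (log2 ratio 0.12, -0.27 to 0.51). It was lower in the knockout library in 2 other clusters. In the unnamed cluster led by Kera and Tnmd, which encode proteins of tendon and related matrix, it stood at 575 and 296 CPM (-0.96, -1.48 to -0.47), and in the osteolineage-like cluster at 556 and 125 CPM (-2.15, -3.42 to -1.09), from 71 and 8 UMIs. In the reticular-like cluster it stood at 213 and 194 CPM (-0.14, -0.74 to 0.44). The order of fibroblast-like, Kera-led and osteolineage-like clusters is not separated by the spread between the libraries, since the control values of all 3 lie between 550 and 575 CPM. Whether these clusters differ from each other in the ratio was not tested.

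Angpt1 came second in the fibroblast-like cluster, where it had 10 UMIs in the control and 20 in the knockout library, or 34.0 and 141 CPM (log2 ratio 2.05, 0.89 to 3.31), against 169 and 199 CPM in the reticular-like cluster. Among the compared clusters Il34 was next highest in the Kera-led cluster, at 57.9 and 20.2 CPM from 15 and 3 UMIs. The pericyte and smooth muscle-like cluster, with 18 and 3 cells, was too small for this comparison and held 11 and 4 Il34 UMIs, or 312 CPM (156 to 559) and 711 CPM (194 to 1821). In the reticular-like cluster Il34 stood at 319 and 189 CPM (-0.75, -1.33 to -0.21), the same direction as in the Cxcl12-high cells that make up most of it. Bmp4 was at 321 and 252 CPM there, 92.7 and 155 CPM in the Kera-led cluster and 104 and 104 CPM in the unnamed cluster led by Gpc3 and Smoc2.

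Tgfb1 had another order of clusters. It was highest in the blood leukocyte-like cluster (27 and 19 cells), at 236 and 568 CPM, then in the chondrocyte-like cluster (6 and 25 cells), at 343 and 122 CPM, and stood at 150 and 94.5 CPM in the reticular-like cluster. The 2 highest clusters overlap in their library values. As a share of all Tgfb1 UMIs, the leukocyte-like cluster held 9.34% in the control and 21.5% in the knockout library, the chondrocyte-like cluster 12.6% of the UMIs and 36 of 144, and the reticular-like cluster 31.3% and 12.5%.

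**Figure D4:**
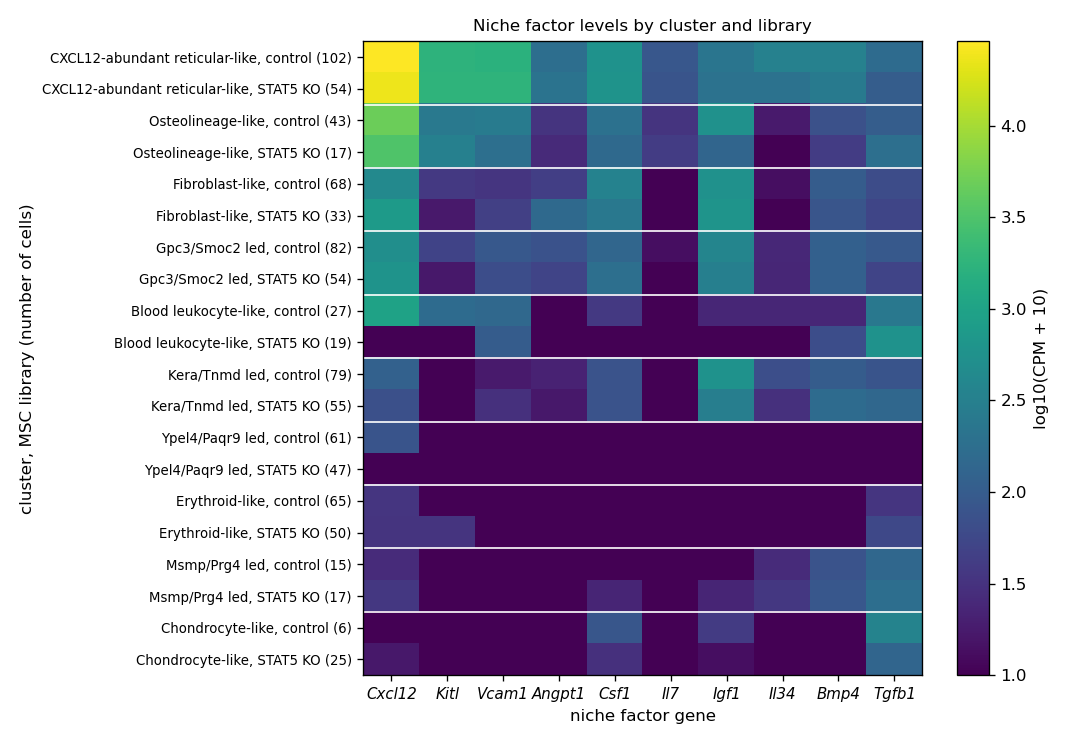
Colour map of log10(CPM + 10) for each niche factor (columns) in each cluster and stromal library (rows, with the number of cells), for the 10 clusters with at least 20000 UMIs in both libraries, ordered by Cxcl12. The first pair of rows is bright for Cxcl12, Kitl and Vcam1, while Igf1 is bright in several clusters and Tgfb1 is faint but present in nearly all.

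The genes whose levels ran most like each member were sought over 22 cluster-by-library sums, which share their 2 libraries and their clustering, among 2420 genes with at least 200 UMIs. Kitl was among the 5 genes most like Cxcl12 (Pearson r of 0.90) and the 5 most like Vcam1 (0.91), and both were among its own 5. Cxcl12 was among the 5 genes most like Vcam1 (0.89), but Vcam1 was not among the 5 for Cxcl12. The first gene was Ggt5 for Cxcl12 (0.92), S1pr3 for Kitl (0.94) and Cebpa for Vcam1 (0.94). Bmp4 ran most like Lepr, the leptin receptor gene (0.91), and Il34 most like Epas1, at a lower r of 0.81. Igf1 ran most like Ddah2 (0.94) and Csf1 most like Dapk1 (0.91), with Igf1 also among the 5 genes most like Csf1 (0.87). Tgfb1 ran most like Npm1 (0.88), which encodes a nucleolar protein found in most cells. Angpt1 and Il7 had too few UMIs for this comparison.

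Extracellular partners and family members of the 10 factors were read as a list of 31 genes. In Cxcl12-high cells 20 had enough UMIs, of which 1 (Angpt4) was past 1.5-fold lower and 2 (Angptl4 and Grem1) higher in the knockout library, with a median log2 ratio of 0.09, beside the 13.1% lower and 9.45% higher over all genes. Grem1, an antagonist of bone morphogenetic proteins, stood at 483 and 782 CPM (0.69, 0.37 to 1.01). Angptl4, a secreted inhibitor of lipoprotein lipase, stood at 249 and 380 CPM (0.61, 0.15 to 1.06). In the other cells 28 had enough UMIs, of which 5 (Angptl1, Angptl4, Igf2, Igfbp4 and Igfbp6) were lower and 2 (Chrdl1 and Bambi) higher, with a median of -0.13, beside 7.12% lower and 5.84% higher over all genes. Igfbp4 and Igfbp6, binding proteins of insulin-like growth factors, stood at 513 and 327 CPM (-0.65, -0.84 to -0.46) and at 2763 and 1720 CPM (-0.68, -0.77 to -0.60). Chrdl1, a secreted antagonist of bone morphogenetic proteins, stood at 47.1 and 150 CPM (1.68, 1.25 to 2.12). Beside these values stand the chondrocyte and fibroblast lists given above, and their part was not tested.

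The receptors of the factors were a list of 22 genes. In the stromal cells they were low: 9 had enough UMIs in Cxcl12-high cells, with 1 (Tgfbr1) lower and 1 (Bmpr1a) higher in the knockout library, and 16 in the other cells, with 0 past the fold. Over all genes 13.1% were lower and 9.45% higher in Cxcl12-high cells, so 1 of 9 either way is near the background. In the KLS cells, which the stromal factors address, Kit stood at 211 CPM in the control and 177 CPM in the knockout library, Itga4, the receptor chain for VCAM1, at 120 and 124 CPM, and Cxcr4 at 80.5 and 95.9 CPM. Igf1r stood at 123 and 116 CPM. Some other receptors of the list were lower: Il7r stood at 13.1 and 7.11 CPM, Csf1r at 6.51 and 5.60 CPM and Tek, which encodes TIE2, at 6.41 and 4.15 CPM. Bmpr1a was lower still, at 0.155 and 0.209 CPM.

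In the KLS cells 2 of the 10 members were present in most cells. Angpt1 stood at 209 CPM (205 to 213) in KLS control and 204 CPM (200 to 207) in KLS STAT5 KO cells, a log2 ratio of -0.04 (-0.07 to -0.0029), and was seen in 84.6% and 77.1% of cells. Tgfb1 stood at 309 CPM (304 to 313) and 312 CPM (308 to 316), a log2 ratio of 0.01 (-0.01 to 0.04), and was seen in 91.6% and 88.1% of cells. The median depth of these cells was 15216 UMIs in the control and 10066 in the knockout library, so the shares of cells are not comparable between them. For both genes the CPM was nearly equal in the 2 genotypes.

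KLS cells were also split by UMIs of lineage and stem markers, a split chosen with results of these data known. Angpt1 was high in cells with UMIs of Pf4, a platelet gene, at 287 CPM (276 to 298) in the control and 322 CPM (310 to 335) in the knockout library, and in cells with Hlf, Mecom and Procr, 3 stem cell markers, at 268 and 285 CPM. It was lower in cells with Dntt, a lymphoid gene, at 159 and 158 CPM, and in cells with both Klf1 and Gata1, erythroid genes, at 165 and 111 CPM. Tgfb1 was also highest in cells with Pf4, at 374 CPM (361 to 387) and 426 CPM (411 to 441). In cells with Klf1 and Gata1 it stood at 357 CPM (333 to 382) in the control and 328 CPM (307 to 350) in the knockout library. The control intervals of these 2 groups overlap.

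The other members were scarce in KLS cells. Vcam1 had 102 UMIs in the control and 55 in the knockout library, or 1.98 CPM (1.62 to 2.41) and 0.720 CPM (0.542 to 0.937), a log2 ratio of -1.46 (-1.96 to -0.97). Igf1 had 74 and 45 UMIs, or 1.44 CPM (1.13 to 1.81) and 0.589 CPM (0.430 to 0.788), a log2 ratio of -1.29 (-1.86 to -0.73). Vcam1 and Igf1 had lower values in the knockout library in each of the 5 marker groups, some of which share cells. Counts were small in places: in cells with Klf1 and Gata1, Vcam1 had 7 and 1 UMIs and Igf1 3 and 0, with overlapping intervals. In cells with none of the markers the intervals also overlapped, for Igf1 (0.771 to 2.06 and 0.451 to 1.20 CPM) and for Vcam1 (1.23 to 2.75 and 0.650 to 1.51 CPM). The Igf1 intervals overlapped too in cells with Dntt (0.625 to 1.40 and 0.265 to 0.686 CPM) and with Pf4 (1.30 to 3.37 and 0.142 to 1.33 CPM). For Igf1 they were apart only in cells with Hlf, Mecom and Procr. Csf1 stood at 3.91 and 3.69 CPM and Il7 had 77 and 93 UMIs. Cxcl12, with 10 and 11 UMIs, Kitl, with 3 and 15, Bmp4, with 18 and 40, and Il34, with 1 and 1, were near absent. The part of free RNA in these low levels was not tested.

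**Figure D5:**
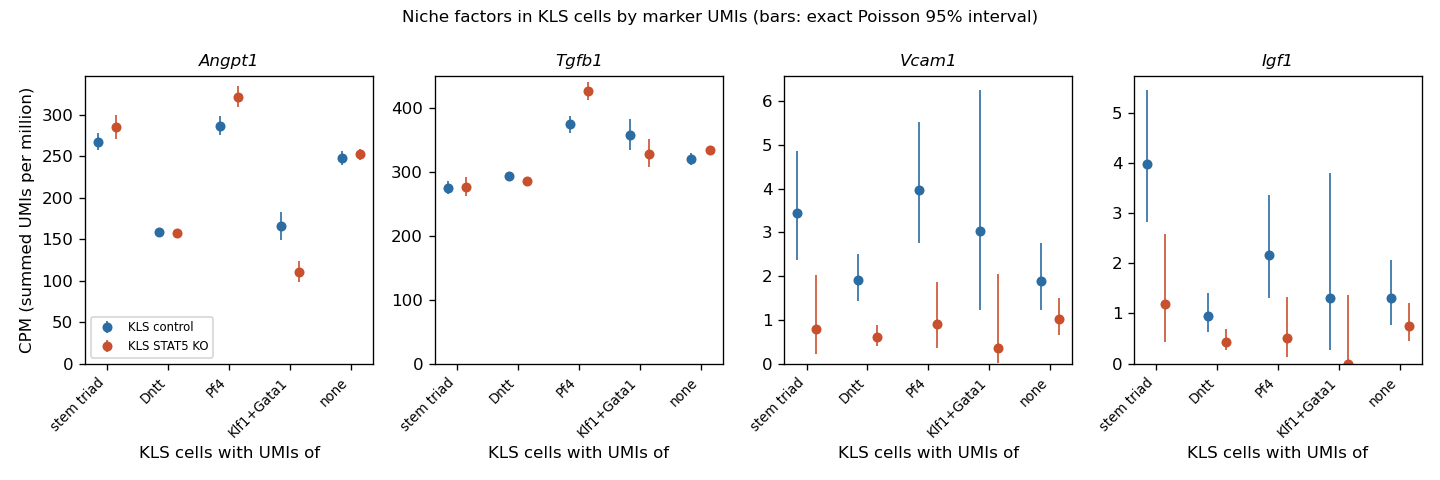
Summed level in CPM of Angpt1, Tgfb1, Vcam1 and Igf1 in KLS cells grouped by marker UMIs (stem triad is Hlf, Mecom and Procr), for the control and the STAT5 KO library, with exact Poisson 95% intervals; each panel has its own vertical scale starting at 0. Angpt1 and Tgfb1 are highest in the Pf4 group, though in the control library its interval overlaps that of another group for each gene. Vcam1 and Igf1 lie at or below 3.98 CPM in every group of both libraries.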

How the data were processed

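The 4 libraries were made with 10x Chromium 3′ kits and aimed at 3000 to 6000 cells each, per the labels' protocols. The deposited matrices hold raw UMI counts per gene and barcode. The submitters' processing notes name Cell Ranger, GRCm38 and mm10, and the file headers carry software version 3.1.0. The cell calling, annotation and strand rule are not given in the sources used here. The smallest barcode held 500 UMIs in both KLS and 501 in both MSC libraries. Of 31053 gene identifiers, 30934 were found in GENCODE M21.

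Barcodes with under 200 genes or over 10% mitochondrial UMIs were removed. The highest Scrublet scores (scanpy 1.11.5) were left out at 0.8% of barcodes per 1000 barcodes, which was 112 KLS control, 451 KLS STAT5 KO, 4 MSC control and 1 MSC STAT5 KO barcodes. Scrublet's own threshold marked 0, 3, 0 and 1 and had not worked for the larger libraries. A stromal barcode with more UMIs in the other stromal library was dropped (31 control and 11 knockout barcodes), and a KLS barcode with more UMIs in any other library likewise. No correction for free RNA was made.

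UMIs were summed per library and class and scaled to CPM. Levels carry exact Poisson, shares exact Clopper-Pearson and ratios exact conditional binomial intervals (scipy 1.17.1). Cells of 1 library share their animals, so these cover counting error only. A gene was read between libraries with at least 20 UMIs over both and called at 1.5-fold on log2(CPM + 10). This procedure was tested on simulated data. The simulated counts held Poisson error only, so the simulation says nothing about differences between cells, mice or libraries. Stromal cells were clustered without the members (2000 variable genes, 30 components, 15 neighbours, Leiden resolution 1, igraph 0.11.9). A cluster was named with at least 3 markers of 1 class among its 20 leading genes. Of the other lists, the text names members past the fold. Alternatives included TMM scaling (edgeR 4.0.16). The members, lists, markers and limits were chosen with earlier results of these data known, and so support nothing by themselves. No sample carried a batch label, and the identity of single mice was not used here.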

Additional observations from a re-analysis of the deposited data

Results flagged for a closer look

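The knockout-to-control ratio of Cxcl12 pointed in opposite directions in different clusters, with counting intervals that left 0. The log2 ratio was 0.85 (0.46 to 1.24) in the fibroblast-like cluster, where Cxcl12 stood at 415 CPM in the control and 748 CPM in the knockout library. It was -0.29 (-0.34 to -0.24) in the CXCL12-abundant reticular-like cluster and -0.60 (-0.84 to -0.37) in the osteolineage-like cluster. In the fibroblast-like cluster 29 of 68 control and 20 of 33 knockout cells had a Cxcl12 UMI, and the largest single cell held 24.6% and 24.5% of them. In the osteolineage-like cluster 1 knockout cell held 72.2% of the UMIs. In the blood leukocyte-like cluster the control had 71 Cxcl12 UMIs, 70 of them in 1 cell, and the knockout library 0, which gives a log2 ratio of -4.16 with a floor of 3 UMIs in place of 0 and an upper counting limit of -3.83. That value rests on the 1 control cell, without which 1 UMI remains.

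Tgfb1 also pointed in opposite directions, with a log2 ratio of 1.27 (0.37 to 2.21) in the blood leukocyte-like cluster, from 17 and 31 UMIs, and of -1.49 (-2.28 to -0.66) in the chondrocyte-like cluster, from 23 and 36 UMIs. The chondrocyte-like cluster had 6 control and 25 knockout cells. The differences between clusters were not tested, since each genotype was 1 library.

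Cxcl12 UMIs were also present in barcodes that had been left out of the KLS libraries because they held more UMIs in another library. Of 1776 Cxcl12 UMIs in the KLS control library, 99.4% lay in 388 such barcodes, and of 1075 in the KLS STAT5 KO library, 98.0% lay in 281. These barcodes held 0.684% and 0.319% of all UMIs of their libraries. For Angpt1 the shares were 0.365% and 0.113%.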

How the results depend on the processing

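The number of members past 1.5-fold lower in the other cells was 2, and became 0 with every barcode of both stromal libraries dropped, 1 with a minimum of 100 UMIs and 0 without the chondrocyte-like cluster, the last being an alternative chosen after the data had been seen. It became 3 with the Cxcl12 minimum at 0.5%, Kitl being the gene added. Dropping cells of that cluster leaves fewer UMIs in the denominator of the knockout library. In Cxcl12-high cells the number was 1, and became 2 with the Cxcl12 minimum at 0.5%, where Igf1 joined Il34, and 0 with it at 2%. The cause of these moves was not tested. Among the counts, medians and shares, 66 values did not move and 4 moved, and among the values of single genes 440 did not and 19 moved. A single-gene value counted as moved when it left the counting interval around its main value, so it could lose its call without counting as moved. The alternatives for the minimum of UMIs could not change a log2 ratio. The tally is therefore no measure of how stable the calls are. Under the alternatives chosen after the data had been seen, 9 and 53 did not and 1 and 7 moved. No value past the fold changed its sign, while some short of it did, such as Bmp4 in the other cells (-0.34, and 0.10 with every shared stromal barcode dropped). The share of Cxcl12-high cells in the knockout minus the control library was -3.83 percentage points and ranged from -4.52 to -3.04. Il34 ranged from -0.82 to -0.56 in Cxcl12-high cells and Igf1 from -0.96 to -0.52 in the other cells, on log2(CPM + 10). At Leiden resolution 2 the reticular-like cells split, and in the part that kept the name (48 control and 28 knockout cells) Bmp4 was at -1.86, against -0.34; the other part (52 and 26 cells) stayed unnamed. No paired analysis was possible because each group was 1 library and the labels give no replicate numbers. Depth limits Il7 and Angpt1, with 33 and 15, and 98 and 66 UMIs in the control and knockout stromal libraries.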

Other observations

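Other secreted signals of the stroma were read as a list of 22 genes beside the 10 members. In Cxcl12-high cells 14 had enough UMIs, of which 2 (Spp1 and Ccl19) were past 1.5-fold lower and 2 (Ptn and Tnfsf11) higher in the knockout library. Over all genes 13.1% were lower and 9.45% higher, so these counts are near the background and the values below describe single genes. Spp1, which encodes the bone matrix protein osteopontin, stood at 2694 CPM in the control and 1376 CPM in the knockout library (log2 ratio -0.97, -1.17 to -0.77). The chemokine gene Ccl19 stood at 164 and 80.3 CPM (-1.03, -1.95 to -0.21). Ptn, which encodes the growth factor pleiotrophin, had 7 and 19 UMIs (2.54, 1.23 to 4.04), and Tnfsf11, which encodes the osteoclast factor RANKL, stood at 74.7 and 118 CPM from 30 and 22 UMIs. The vascular growth factor gene Vegfa was level at 620 and 600 CPM, as was Gas6, a ligand of TAM receptors, at 2039 and 1949 CPM.

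In the other cells 16 of the 22 had enough UMIs, with 2 (Ptn and Cxcl14) lower and 3 (Spp1, Wnt4 and Rspo3) higher, beside 7.12% lower and 5.84% higher over all genes. Spp1 stood at 342 CPM in the control and 3252 CPM in the knockout library there (3.25, 3.11 to 3.39), the opposite direction to its difference in Cxcl12-high cells, and this contrast was not tested. The chondrocyte list moved with it, from 4726 to 24097 CPM. Of the osteolineage markers, 6 of 8 were past 1.5-fold higher there, while their sum stood at 10425 and 9072 CPM. Spp1 was also a leading gene of the osteolineage-like cluster, and the part of either kind of cell was not tested.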
